A study of Mus musculus with 18 samples.

Results

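The genes described here are 10 that make or answer to hepcidin, or move and store iron, in the liver: Hamp, Hamp2, Bmp6, Id1, Hfe, Tfr2, Tfrc, Trf, Slc40a1 and Fth1. They were chosen by name for their roles, with earlier results of these data known. All 10 were read by a tested probe, among 19598 genes with a tested probe in all. Liver RNA of individual male C57BL/6 mice was hybridised to 1-colour Agilent whole mouse genome arrays, 1 array per mouse and 18 arrays in all. From 6 weeks of age the mice ate a diet with 10% fat (LFD) or 60% fat (HFD), which they kept to the end. The 4 LFD and 4 HFD mice received no methotrexate and are not labelled as having received a vehicle. The 5 LFD MTX50 and 5 HFD MTX50 mice were injected intraperitoneally with methotrexate, an antifolate chemotherapy agent, at 50 mg/kg for 5 rounds, which began after 10 weeks on the diet. Livers were taken 1 week after the last injection. The arrays were run to see how the diets and methotrexate altered liver metabolism.

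Hepcidin is a peptide hormone of hepatocytes. It binds the iron exporter ferroportin on gut cells and macrophages and causes its degradation, so that less iron enters the blood. Its gene is switched on by iron through BMP ligands and SMAD proteins and by inflammation through IL-6 and STAT3, and it is held down when the marrow makes red cells rapidly. Mice carry a pair of hepcidin genes next to each other, Hamp and Hamp2, and Hamp encodes the iron-regulating hormone.

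The upstream sequences of the hepcidin genes are shown because both routes of control act there. The stretches below are from RefSeq (build GRCm38.p6, chromosome 7, minus strand) and are written 5′ to 3′. The capitals mark the letters GGCGCC of the BMP-responsive box in Hamp, the aligned position in Hamp2, which does not hold those letters, and after it the letters of the STAT-type site. Hamp lies at chr7:30944057-30944186 and Hamp2 at chr7:30924206-30924335, which are bases −157 to −28 and −154 to −25 relative to the start of each transcript.
Hamp: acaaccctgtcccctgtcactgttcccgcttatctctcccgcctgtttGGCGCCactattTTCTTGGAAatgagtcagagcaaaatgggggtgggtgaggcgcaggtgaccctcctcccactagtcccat
Hamp2: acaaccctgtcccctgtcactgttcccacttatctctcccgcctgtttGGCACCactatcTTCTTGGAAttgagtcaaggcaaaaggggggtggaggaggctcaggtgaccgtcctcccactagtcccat

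The stretches of 130 bases are 91.5% identical and differ at 11 positions. Counted from 1 at the 5′ end of the printed stretch, 1 difference lies within the box, G52A from Hamp to Hamp2, so Hamp has the letters GGCGCC and Hamp2 has GGCACC. The site TTCTTGGAA has no difference between the genes. Over 32851 RefSeq windows of 250 bases before a transcript start, 9.59% hold GGCGCC, 7.02% hold TTCNNNGAA and 0.368% hold both, where N is any base and each motif reads the same on both strands. Among the 11 windows of the 7 members that matched by symbol in that table, GGCGCC also stood in 1 of the Tfrc windows, at −89, and TTCNNNGAA stood in none besides those of the hepcidin genes. A match is a description of letters and not evidence of binding. The coding parts of Hamp and Hamp2 are close copies too, so signal of either transcript on the other's probe cannot be told apart here.

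Values are given as log2 signal relative to the 75th percentile of the array, so that a difference of 1 is a 2-fold change, and levels of different genes are not compared, because each probe binds with its own strength. All member values come from probes well above background on 18 of 18 arrays. A gene is said to have risen or fallen where limma's adjusted p, over all tested probes, is below 0.05. The 75th percentile of an array was 1203 to 2263 intensity units, and 83.9 to 90.6% of probes lay well above background. The number of arrays limits the precision, and no depth can be stated for intensities. The arrays lie on 6 slides. LFD filled 1 slide and LFD MTX50 lay on 2 others, so where LFD or LFD MTX50 is compared, slide and group cannot be told apart. HFD and HFD MTX50 had 1 slide in common, which held mice 3 and 4 of the former and mice 1 and 2 of the latter. All 6 hepatocyte and 7 macrophage markers listed lay above background on every array, and the mean of the hepatocyte markers was 6.04 to 6.19 in LFD, 6.29 to 6.72 in LFD MTX50, 5.96 to 6.04 in HFD and 5.57 to 6.36 in HFD MTX50. In LFD MTX50 vs LFD, 2 of the 6 rose, Pck1 (1.31) and Apoa1 (0.74), and 0 fell, beside 17.6% and 10.5% of all tested genes. Alb (0.03), Ttr (0.01), Serpina1c (0.01) and Tat (0.24) did not pass.

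HFD MTX50 livers were not alike, and this bears on each result that uses them. The alpha globin gene Hba-a1, a marker of red cell RNA with a near-identical copy whose signal it may share, read 3.66, 4.29, 3.71 and 4.21 in LFD mice 1 to 4 and 3.60, 4.11, 2.91 and 4.24 in HFD mice 1 to 4. In LFD MTX50 mice 1 to 5 it read −0.65, −0.92, −0.84, −1.03 and −0.85, a fall of 4.82 ± 1.01 (log2 difference ± SE, adjusted p 0.00473). Among HFD MTX50 mice it read −0.72, −0.63 and −0.10 in mice 1, 2 and 3, but 4.21 in mouse 4 and 5.67 in mouse 5. Mice 4 and 5 therefore held globin transcripts at or above the level of untreated mice. The mean of the 6 erythroid markers tested was −1.61 to −0.70 in LFD, −3.81 to −3.02 in LFD MTX50, −1.72 to −1.17 in HFD and −3.48 to 0.29 in HFD MTX50. These markers did not move together. In LFD MTX50 vs LFD, 3 of the 6 fell (Hba-a1, Hbb-b1 and Alas2), where 10.5% of all tested genes did. Klf1 rose (0.69, adjusted p 0.0402), where 17.6% of all did, and Slc4a1 (0.29) and Epb42 (0.15) did not pass. The red cell membrane gene Epb42 was above background in 1 of the LFD mice, in none (0) of LFD MTX50 or HFD and in 4 of HFD MTX50. Mouse 5 of HFD MTX50 also had the highest mean of 8 acute phase genes (5.64 against 2.64 to 3.88 in the other HFD MTX50 mice) and of 6 neutrophil genes (2.50 against −1.50 to 1.11). The acute phase mean was 2.09 to 2.29 in LFD, 2.61 to 3.18 in LFD MTX50 and 2.22 to 2.87 in HFD. It thus did not overlap between the lean groups, where 2 of the 8 genes rose and 0 fell, beside 17.6% and 10.5% of all.

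Read over the 10 genes, the treatment of lean mice had the most calls. In LFD MTX50 vs LFD, 3 of 10 rose (Id1, Slc40a1 and Tfr2), where 17.6% of all tested genes did, and 2 of 10 fell (Fth1 and Hfe), where 10.5% of all did. In HFD MTX50 vs HFD, 1 rose (Slc40a1, background 4.83%) and 0 fell (background 6.13%). In HFD vs LFD, 0 rose (background 18%) and 0 fell (background 10.4%). In HFD MTX50 vs LFD MTX50, 0 were higher (background 7.37%) and 3 were lower, Id1, Slc40a1 and Tfr2 (background 8.75%). For how far the methotrexate effect differed between diets, 0 of 10 passed, against 26.8% of all genes. The median log2 difference of the 10 genes was −0.30 for HFD vs LFD, 0.32 for LFD MTX50 vs LFD, 0.34 for HFD MTX50 vs HFD and −0.34 for HFD MTX50 vs LFD MTX50, beside medians over all genes of 0.08, 0.10, −0.04 and −0.06. In these bulk samples, fewer cells of a type and less RNA per cell cannot be told apart. Comparisons that share a group, such as HFD vs LFD and LFD MTX50 vs LFD, are not independent of each other.

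**Figure D1:**
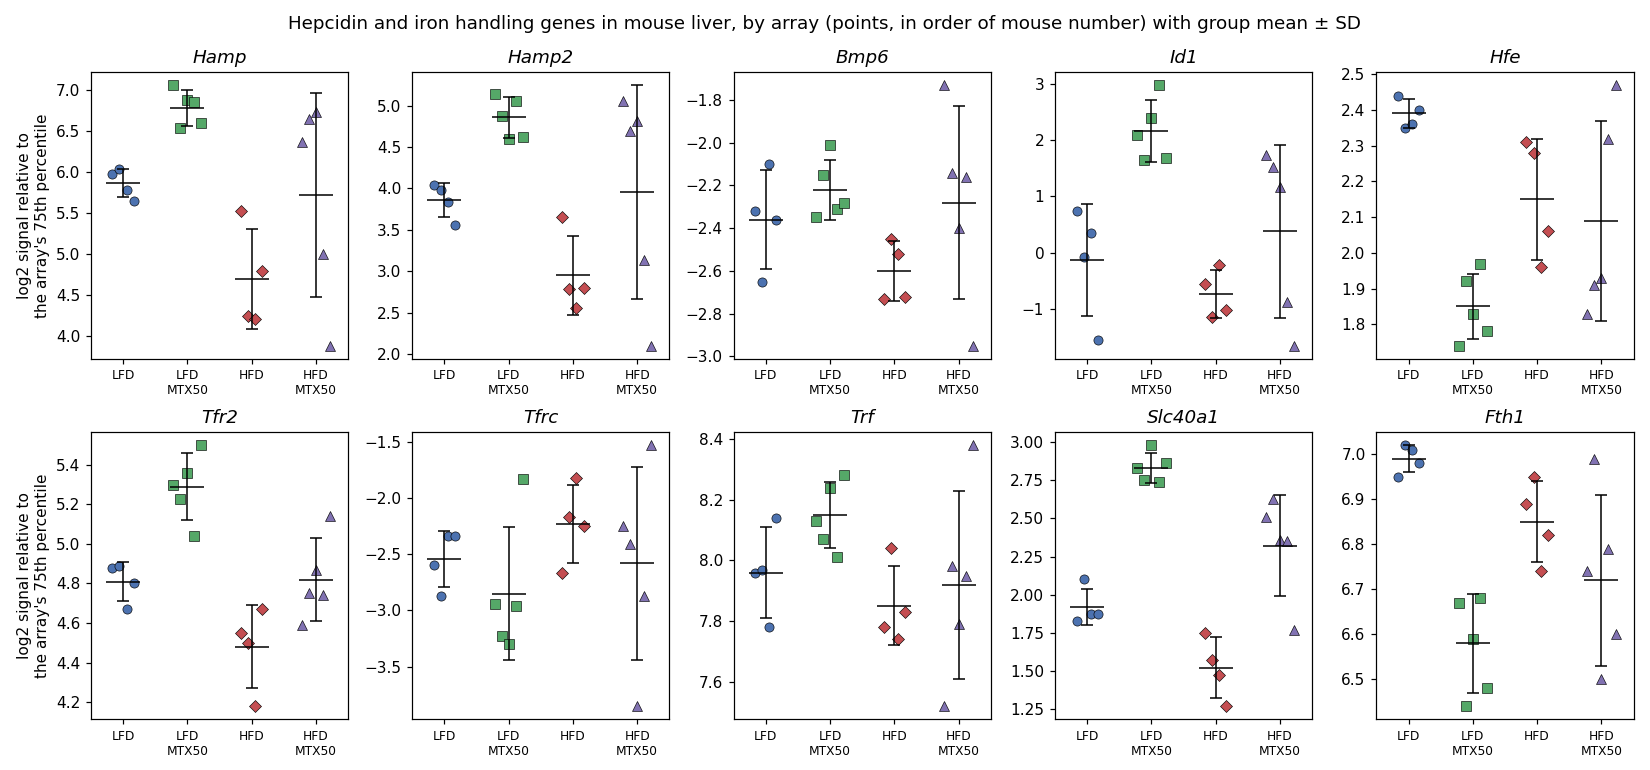
Log2 signal relative to the 75th percentile of each array for the 10 genes (vertical axes, 1 scale per gene) in the 4 groups, with a point per mouse in order of mouse number and a bar at the group mean ± SD (4 LFD, 5 LFD MTX50, 4 HFD, 5 HFD MTX50). Hamp, Hamp2 and Id1 of HFD MTX50 mice 1 to 3 lie at 6.36 to 6.73, 4.69 to 5.05 and 1.16 to 1.73, and those of mice 4 and 5 lie lower, at 5.00 and 3.88, 3.13 and 2.10, and −0.88 and −1.65.

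Hepcidin itself differed by about 2-fold between groups without passing the test. Hamp read 5.97, 6.03, 5.78 and 5.65 in LFD mice 1 to 4 and 5.52, 4.24, 4.21 and 4.79 in HFD mice 1 to 4. Every HFD mouse lay below every LFD mouse. The means were 5.86 ± 0.17 (SD, n = 4) and 4.69 ± 0.61 (SD, n = 4), which differ by −1.17 ± 0.48 or 2.24-fold (adjusted p 0.0764). Groups failed to overlap in this comparison for 40.3% of all genes, so a gap of this kind is common here, and among the 10 genes it was seen in 4 (Hamp, Tfr2, Slc40a1 and Hfe), each lower in HFD.

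In lean mice given methotrexate Hamp read 7.06, 6.53, 6.87, 6.85 and 6.59. All 5 lay above the highest LFD mouse. The mean was 6.78 ± 0.22 (SD, n = 5) and the difference from LFD 0.92 ± 0.46 or 1.90-fold (adjusted p 0.130). Fitted with only the 2 groups compared, whose mice vary little, the same difference had an adjusted p of 0.00274, while a random effect of slide gave 0.386. In this comparison 29.1% of all genes did not overlap between groups, against 7 of the 10, of which 5 were higher and 2 lower.

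HFD MTX50 mice carried the widest spread of Hamp, with 6.36, 6.64, 6.73, 5.00 and 3.88 in mice 1 to 5. Mice 1 to 3 reached the range near LFD MTX50 and mouse 5 had the lowest value of all 18 arrays. The mean of 5.72 ± 1.24 (SD, n = 5) differed from HFD by 1.03 ± 0.46 or 2.05-fold (adjusted p 0.134) and from LFD MTX50 by −1.06 ± 0.43 (adjusted p 0.0956). On the slide that held both HFD groups the means were 4.50 (HFD) and 6.50 (HFD MTX50), a Hamp difference of 2.00 (adjusted p 0.0709 with the spread from all arrays and 0.219 with the slide as a fixed effect). That slide held only mice 3 and 4 of HFD and mice 1 and 2 of HFD MTX50. Each shared-slide value given here and below thus leaves out HFD MTX50 mice 3, 4 and 5 and HFD mice 1 and 2. A different size from the full comparison may reflect which mice lay there. Without HFD MTX50 mouse 5 the Hamp difference from HFD was 1.5 (adjusted p 0.0222), and without mouse 4 it was 1.21 (adjusted p 0.110). Because the groups share 1 estimate of the spread, leaving out mouse 5 also brought HFD vs LFD (adjusted p 0.0170) and LFD MTX50 vs LFD (adjusted p 0.0363) past the threshold for Hamp, as leaving out HFD mouse 1 did for HFD vs LFD (−1.44, adjusted p 0.0397). The low Hamp of mice 4 and 5 went with the high globin transcripts given above, and Hamp of mouse 5 was lowest where acute phase genes were highest. The part of these cells and genes in the result was not tested.

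Hamp2, the neighbouring copy, was likewise lowest in HFD and highest in LFD MTX50. It read 4.04, 3.98, 3.83 and 3.56 in LFD and 3.66, 2.79, 2.56 and 2.80 in HFD, with 1 HFD mouse inside the LFD range. It read 5.14, 4.88, 4.60, 5.05 and 4.62 in LFD MTX50 and 5.05, 4.69, 4.82, 3.13 and 2.10 in HFD MTX50. LFD MTX50 lay above LFD throughout, and HFD MTX50 mice 4 and 5 again lay lowest of their group. Group means were 3.86 ± 0.21 for LFD, 2.95 ± 0.48 for HFD, 4.86 ± 0.25 for LFD MTX50 and 3.96 ± 1.29 for HFD MTX50 (SD, n = 4, 4, 5 and 5). Hamp2 differed by −0.90 ± 0.48 in HFD vs LFD (adjusted p 0.161), by 1.00 ± 0.46 in LFD MTX50 vs LFD (adjusted p 0.105) and by 1.00 ± 0.46 in HFD MTX50 vs HFD (adjusted p 0.145). The last difference of Hamp2 was 2.19 where the slide was shared, with an adjusted p of 0.0387 when the spread came from all arrays and 0.165 with the slide as a fixed effect. It was 1.47 without HFD MTX50 mouse 5 (adjusted p 0.0237). Without that mouse Hamp2 also passed in HFD vs LFD (adjusted p 0.0492) and LFD MTX50 vs LFD (adjusted p 0.0265). Between the diets, the methotrexate effect differed by 0.11 ± 0.65 for Hamp (adjusted p 0.913) and 0.00 ± 0.65 for Hamp2 (adjusted p 0.997), with errors too wide to show that the effects were alike.

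Bmp6, the BMP ligand made mainly by sinusoidal endothelial cells of the liver when iron is plentiful, passed in no comparison. It ranged from −2.65 to −2.10 in LFD, −2.35 to −2.01 in LFD MTX50, −2.73 to −2.45 in HFD and −2.95 to −1.73 in HFD MTX50, and the groups overlapped in each comparison. Bmp6 differed by −0.25 ± 0.19 for HFD vs LFD (adjusted p 0.336), 0.14 ± 0.18 for LFD MTX50 vs LFD (adjusted p 0.577) and 0.33 ± 0.18 for HFD MTX50 vs HFD (adjusted p 0.228). HFD MTX50 mouse 5 had the lowest Bmp6 of all arrays and mouse 1 the highest. The mean of 5 sinusoidal endothelial markers was 0.86 to 1.17 in LFD, 1.22 to 1.70 in LFD MTX50, 0.99 to 1.41 in HFD and 1.01 to 1.71 in HFD MTX50. It did not overlap between the lean groups, and its part in the values of the BMP ligands and their targets was not tested.

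Id1, a transcriptional repressor and a direct target of BMP and SMAD signalling, rose with methotrexate in lean mice. It read 0.74, −0.08, 0.36 and −1.54 in LFD mice 1 to 4 and 2.09, 1.64, 2.40, 2.98 and 1.69 in LFD MTX50 mice 1 to 5. The groups did not overlap, and LFD mouse 4 lay well below its group. The means were −0.13 ± 1.00 (SD, n = 4) and 2.16 ± 0.55 (SD, n = 5), a difference of 2.29 ± 0.62 or 4.88-fold (adjusted p 0.0148), which held without each of the 18 arrays in turn and was lost with a random effect of slide (2.22, adjusted p 0.126).

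On the high fat diet Id1 read −0.55, −1.14, −0.22 and −1.02 without and 1.73, 1.53, 1.16, −0.88 and −1.65 with methotrexate. As with Hamp, mice 1 to 3 were high and mice 4 and 5 were within or below the HFD range. Id1 thus differed by 1.11 ± 0.62 (adjusted p 0.230) over all HFD MTX50 mice and by 2.25 on the shared slide (adjusted p 0.101, and 0.172 with the slide as a fixed effect). It was 3.43-fold lower in HFD MTX50 than in LFD MTX50 (−1.78 ± 0.59, adjusted p 0.0468). Id1 kept that call in 5 of 11 other settings and in 5 of the 18 fits that left out an array. Among the arrays whose absence ended it were HFD MTX50 mouse 4 (−1.46, adjusted p 0.122) and mouse 5 (−1.27, adjusted p 0.104). The difference of the treatment effects for Id1 was −1.18 ± 0.88 (adjusted p 0.322).

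**Figure D2:**
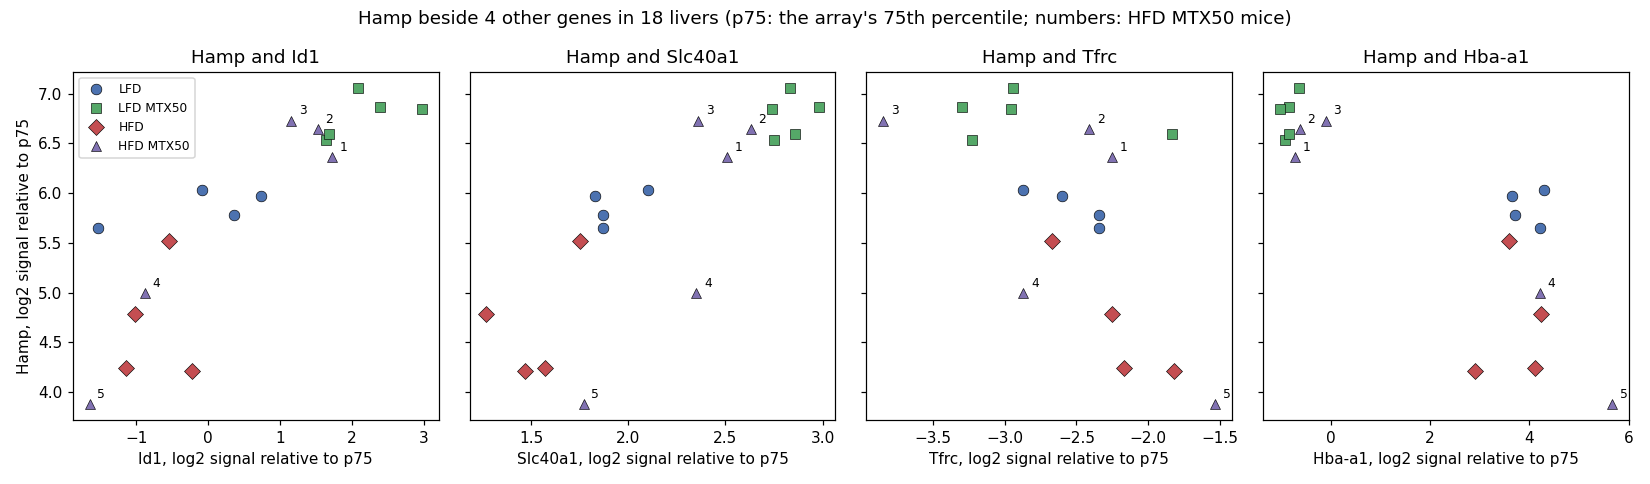
Hamp (vertical axis) against Id1, Slc40a1, Tfrc and the alpha globin gene Hba-a1 (horizontal axes) in each of the 18 livers, as log2 signal relative to the 75th percentile of the array, with a symbol per group and the mouse numbers of HFD MTX50. HFD MTX50 mice 1 to 3 lie near LFD MTX50 in the Id1 and Hba-a1 panels, and mice 4 and 5 lie with the untreated mice or beyond them.

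The genes that sense circulating iron split. Tfr2, the hepatocyte receptor that reads transferrin saturation, read 4.88, 4.89, 4.67 and 4.80 in LFD and 5.30, 5.23, 5.36, 5.04 and 5.50 in LFD MTX50. Every treated lean mouse was above every untreated one. Tfr2 rose by 0.47 ± 0.12 or 1.39-fold (adjusted p 0.0131, and 0.103 with a random effect of slide). HFD mice read 4.55, 4.50, 4.18 and 4.67 and HFD MTX50 mice 4.59, 4.75, 4.87, 4.74 and 5.14, and the groups overlapped. The Tfr2 difference was 0.34 ± 0.12 with methotrexate on the HFD (adjusted p 0.0804, 0.24 on the shared slide), −0.34 ± 0.13 for HFD vs LFD (adjusted p 0.0641) and −0.47 ± 0.12 for HFD MTX50 vs LFD MTX50, a 1.38-fold lower level (adjusted p 0.0173). Unlike Hamp and Id1, Tfr2 was highest in mouse 5 among HFD MTX50 mice. Without that mouse Tfr2 passed in HFD vs LFD (adjusted p 0.0400), and without mouse 1 it passed in HFD MTX50 vs HFD (0.40, adjusted p 0.0460).

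Hfe, the MHC-like partner of the transferrin receptors in the sensing of iron, moved the other way in lean mice. It read 2.44, 2.35, 2.36 and 2.40 in LFD and 1.74, 1.92, 1.83, 1.97 and 1.78 in LFD MTX50, without overlap. Hfe fell by 0.54 ± 0.13 or 1.45-fold (adjusted p 0.0073), a call lost with a random effect of slide (adjusted p 0.0714). In HFD it read 2.31, 2.28, 1.96 and 2.06, and in HFD MTX50 1.83, 1.91, 1.93, 2.32 and 2.47. Mice 1 to 3 of HFD MTX50 lay in the LFD MTX50 range and mice 4 and 5 in or near the LFD range, the reverse of Hamp. The HFD MTX50 vs HFD difference was −0.06 ± 0.13 (adjusted p 0.770), and the difference of the treatment effects was 0.48 ± 0.18 (adjusted p 0.0527), which passed when the arrays were scaled to their median (0.62, adjusted p 0.0325) and without HFD mouse 1 (0.53, adjusted p 0.0387), LFD MTX50 mouse 4 (0.51, adjusted p 0.0484) or any 1 of HFD MTX50 mice 1 to 3 (0.54, 0.52 and 0.52, adjusted p 0.0254, 0.0375 and 0.0474).

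Tfrc, the receptor that brings transferrin-bound iron into cells, passed in no comparison. Its read probe ranged from −2.87 to −2.34 in LFD, −3.30 to −1.83 in LFD MTX50, −2.67 to −1.82 in HFD and −3.85 to −1.53 in HFD MTX50. HFD MTX50 mouse 3, with high Hamp, had the lowest Tfrc of all arrays and mouse 5, with the lowest Hamp, the highest. Tfrc differed by 0.31 ± 0.39 for HFD vs LFD (adjusted p 0.561), −0.31 ± 0.37 for LFD MTX50 vs LFD (adjusted p 0.532) and −0.35 ± 0.37 for HFD MTX50 vs HFD (adjusted p 0.530). Another Tfrc probe gave 0.12, 0.18 and 0.24 in the same order (adjusted p 0.849, 0.756 and 0.719), so the signs of the treatment differences were not shared between probes. The last Tfrc probe was above background on 1 array and was not tested. Maturing red cells carry Tfrc in quantity, and the erythroid marker mean given above was also highest in mouse 5. Its part in the Tfrc values was not tested.

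Slc40a1, which encodes ferroportin, the iron exporter that hepcidin removes, was the member that rose on both diets. It read 1.83, 2.10, 1.87 and 1.87 in LFD and 2.83, 2.75, 2.98, 2.74 and 2.86 in LFD MTX50. The groups were far apart relative to their spread. Slc40a1 rose by 0.91 ± 0.14 or 1.89-fold in lean mice (adjusted p 0.00122), and it stayed past the threshold without each array in turn and in 10 of 11 other settings, with normexp background correction the exception (adjusted p 0.182).

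On the HFD, Slc40a1 read 1.75, 1.57, 1.47 and 1.27 without and 2.51, 2.63, 2.36, 2.35 and 1.77 with methotrexate. The groups did not overlap, which 11.4% of all genes shared in this comparison and no other of the 10 did, but mouse 5 was close to the highest HFD mouse. Slc40a1 rose by 0.81 ± 0.14 or 1.75-fold (adjusted p 0.0078), by 1.20 within that slide (adjusted p 0.00479) and by 0.95 without mouse 5 (adjusted p 0.00418). The call held in 9 of 13 other settings. In a fit of the 2 groups alone the adjusted p was 0.0726, a fit in which 0 of 35739 probes passed, and with the slide as a fixed effect it was 0.0691. HFD MTX50 remained 1.42-fold below LFD MTX50 (−0.51 ± 0.14, adjusted p 0.0226), without overlap, as 6.13% of all genes were in that comparison and 1 of the 10, but not past the threshold without LFD MTX50 mouse 3 (−0.47, adjusted p 0.0580). HFD vs LFD for Slc40a1 was −0.40 ± 0.15 (adjusted p 0.0585). It passed there without HFD MTX50 mouse 5 (adjusted p 0.0142), as it did without HFD mouse 1 (adjusted p 0.0348) or HFD MTX50 mouse 2 (adjusted p 0.0477). Ferroportin is made by Kupffer cells as well as hepatocytes, and the mean of 7 macrophage markers was 0.53 to 1.37 in LFD, 0.70 to 1.41 in LFD MTX50, 0.48 to 0.97 in HFD and 1.02 to 1.79 in HFD MTX50. This mean overlapped between the lean groups and did not overlap between the HFD groups, where the gap was narrow (0.97 against 1.02). In HFD MTX50 vs HFD, 0 of these 7 markers passed, where 4.83% of all tested genes rose and 6.13% fell. All 7 differences were positive, from 0.49 (Clec4f) to 1.17 (Marco), with a median of 0.62. The part of the macrophage markers in the Slc40a1 difference was not tested. Transcript level says nothing of the ferroportin protein that hepcidin acts on.

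Trf, transferrin, the iron carrier of plasma made by hepatocytes, ranged from 7.78 to 8.14 in LFD, 8.01 to 8.28 in LFD MTX50, 7.74 to 8.04 in HFD and 7.52 to 8.38 in HFD MTX50 on its brighter probe and passed in no comparison (0.18 ± 0.14 in LFD MTX50 vs LFD, adjusted p 0.320). Its other probe lay higher in every LFD MTX50 than in every LFD mouse (0.44 ± 0.14, adjusted p 0.0320), so the probes of Trf differ in the call. Both gave a difference of the same sign in each of the 3 comparisons of treatment and diet.

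Fth1, the heavy chain of the iron store ferritin, fell in lean treated mice. It read 6.95, 7.02, 7.01 and 6.98 in LFD and 6.67, 6.44, 6.59, 6.68 and 6.48 in LFD MTX50, without overlap. Fth1 fell by 0.42 ± 0.10 or 1.33-fold (adjusted p 0.008), and the call was lost under quantile normalization (−0.35, adjusted p 0.0989), with normexp (adjusted p 0.194) and with a random effect of slide (adjusted p 0.0844). HFD livers read 6.89, 6.95, 6.74 and 6.82 and HFD MTX50 livers 6.74, 6.99, 6.50, 6.79 and 6.60, a difference of −0.13 ± 0.10 (adjusted p 0.394). Ftl1, the light chain, averaged 7.62 ± 0.07 in LFD and 7.58 ± 0.15 in LFD MTX50 and passed in no comparison. Ferritin is controlled mostly at translation by iron regulatory proteins, so a transcript level is no measure of stored iron.

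**Figure D3:**
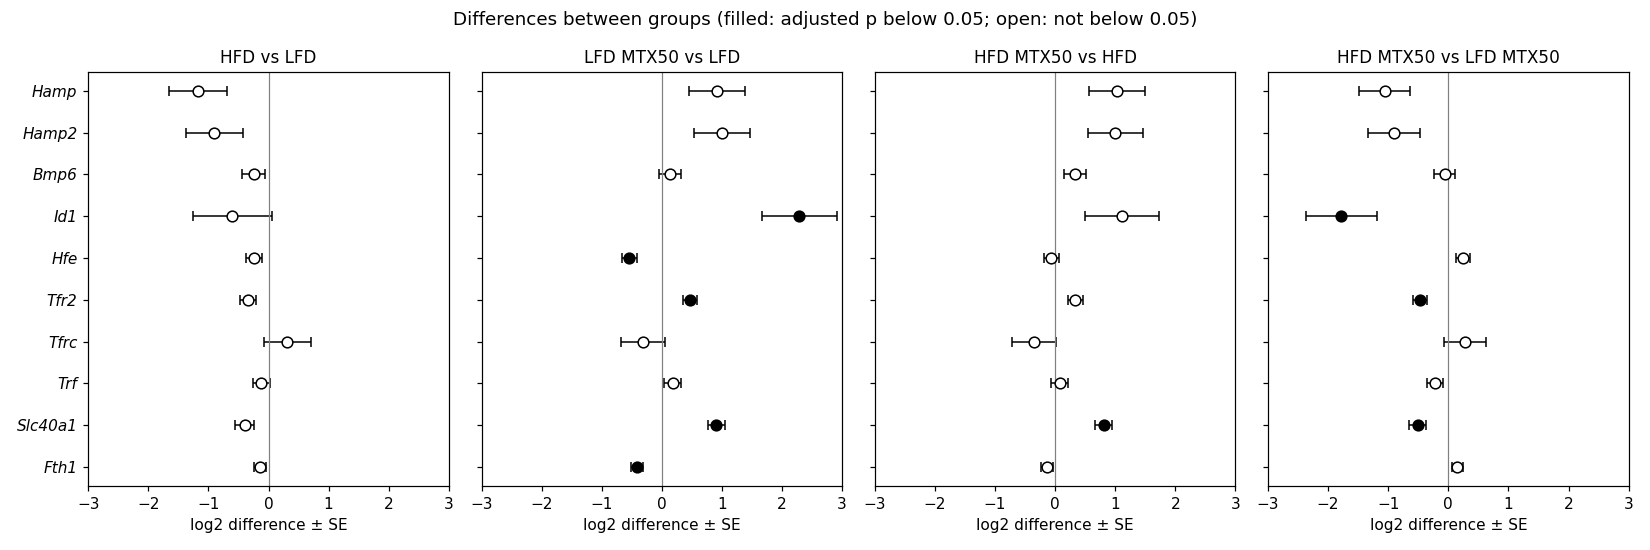
Log2 difference ± SE (horizontal axis) of the 10 genes in HFD vs LFD, LFD MTX50 vs LFD, HFD MTX50 vs HFD and HFD MTX50 vs LFD MTX50, from 1 limma model with 4 groups. Filled points have an adjusted p below 0.05, and there are 0, 5, 1 and 3 of them in the 4 panels in that order.

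Over the 18 arrays, the genes outside the lists whose values were most like those of Hamp were Gucy2c (Pearson's r 0.973), Olfr509 (0.954), Zbtb39 (0.912), Mia3 (0.906) and Uhrf1bp1l (0.900). Among the members, r with Hamp was 0.975 for Hamp2, 0.866 for Id1, 0.833 for Slc40a1, 0.579 for Bmp6, 0.568 for Tfr2, 0.027 for Trf, −0.269 for Fth1, −0.600 for Hfe and −0.638 for Tfrc. The 18 points share the groups and slides, so these are descriptions without a test. After each group's mean was taken away, r was 0.956 for Hamp2, 0.775 for Id1 and 0.754 for Slc40a1, and the sign turned for Tfr2 (−0.264), Trf (−0.641) and Fth1 (0.258).

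Further genes of the pathway were read in 6 lists, 74 genes in all, each of them tested. In LFD MTX50 vs LFD, 19 of 74 rose and 8 fell, beside 17.6% and 10.5% of all tested genes. HFD MTX50 vs HFD had 14 that rose and 1 that fell, beside 4.83% and 6.13% of all. HFD vs LFD had 4 that were higher and 11 lower, beside 18% and 10.4% of all. In HFD MTX50 vs LFD MTX50, 4 were higher and 5 lower, beside 7.37% and 8.75% of all. The difference of the treatment effects passed for 7 with a positive and 5 with a negative sign, beside 26.8% of all in either direction. The counts for single lists stand beside the same shares of all genes, and lists this short are described and not tested. Of the 27 genes past the threshold in lean and the 15 in HFD mice, 10 were past it on both diets, 9 of them with the same sign. The share of all tested genes past it on both diets was not counted, so this overlap cannot be read as particular to iron genes. The medians over the 74 genes were 0.12, 0.20, −0.06 and −0.11 in that order of the comparisons.

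**Figure D4:**
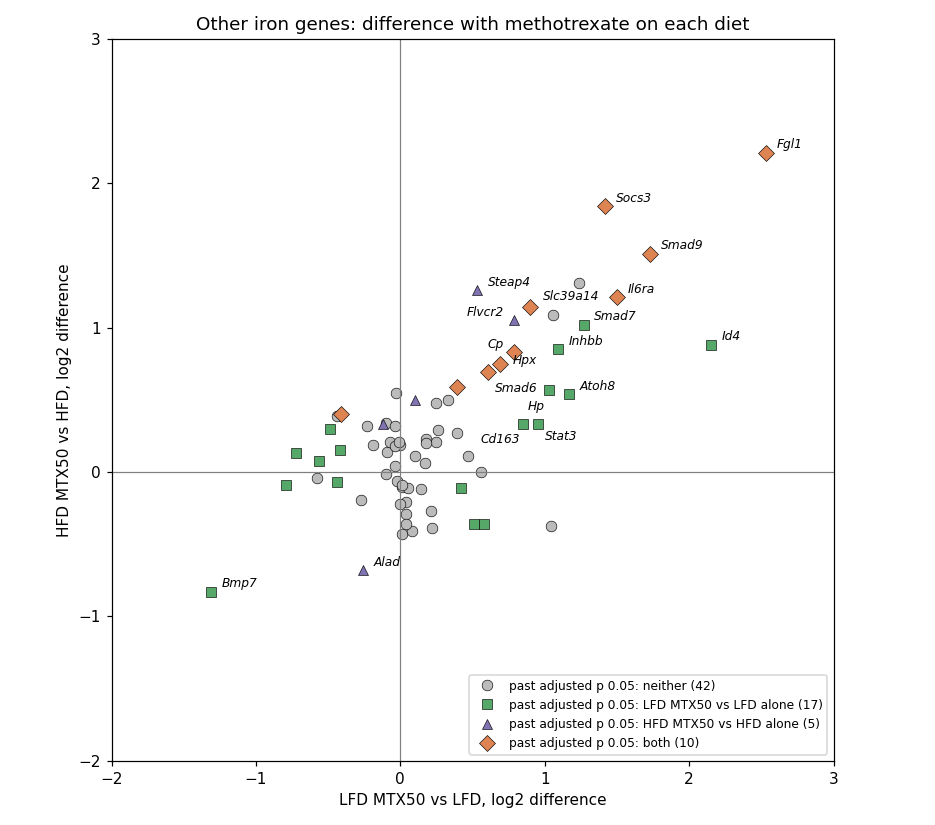
Log2 difference in LFD MTX50 vs LFD (horizontal axis) against HFD MTX50 vs HFD (vertical axis) for the 74 other iron genes, with colour and shape giving the comparisons in which the adjusted p was below 0.05. Of the 74, 10 passed in both, 17 in lean mice alone and 5 in HFD mice alone, and Fgl1, at 2.53 and 2.21, lies farthest out. The share of all tested genes that passed in both was not counted.

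Of 7 other BMP target genes, 4 rose in LFD MTX50 vs LFD and 0 fell, beside 17.6% and 10.5% of all tested genes. They were Id4, a relative of Id1 (2.15, adjusted p 0.0044), the inhibitory SMADs Smad7 (1.27, adjusted p 0.0112) and Smad6 (0.61, adjusted p 0.0205), and the transcription factor Atoh8 (1.17, adjusted p 0.0109). With methotrexate on the HFD, 1 of 7 rose, Smad6 (0.69, adjusted p 0.0253), and 0 fell, beside 4.83% and 6.13% of all. Smad7 differed there by 1.02 with an adjusted p of 0.0515. Between the treated groups, Id4 (−1.31, adjusted p 0.0418), Smad7 (−1.04, adjusted p 0.0312) and Atoh8 (−0.92, adjusted p 0.0355) were lower. Bambi was higher, by at least 1.36-fold (adjusted p 0.0171), since it lay above background on 0 of 5 LFD MTX50 and on 5 of 5 HFD MTX50 arrays. Smad7 read 1.68, 1.30, 0.75, 0.08 and −0.18 in HFD MTX50 mice 1 to 5 and Atoh8 read −1.69, −2.12, −2.19, −3.11 and −3.51. Both were thus lowest in mice 4 and 5, as Hamp and Id1 were, whereas Smad6 read −1.12, −1.49, −1.64, −1.32 and −1.68 and did not set those mice apart. Id4 was again lowest in mice 4 and 5, but Id2, Id3 and Bambi did not set these mice apart. Id2 read 3.83, 3.19, 3.63, 3.47 and 2.95 and Id3 read 1.76, 0.91, 1.13, 1.62 and −0.15. With methotrexate, Id2 differed by 0.33 in lean and 0.50 in HFD mice, and Id3 by −0.02 and −0.06. Neither gene passed in these comparisons. None passed between the untreated diets (0 of 7, by limma), where 18% of all tested genes were higher in HFD and 10.4% lower.

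Of 19 hepcidin regulators, 4 rose and 3 fell in LFD MTX50 vs LFD, near the 17.6% and 10.5% of all tested genes. In HFD MTX50 vs HFD, 6 rose and 0 fell, beside 4.83% and 6.13% of all. Fgl1, a liver-secreted protein that binds BMP6 and lowers hepcidin, had the largest rise of the list on each diet (2.53 ± 0.32 or 5.79-fold, adjusted p 0.00041, and 2.21 ± 0.32 or 4.63-fold, adjusted p 0.0046). Unlike Hamp it set HFD MTX50 mice 4 and 5 apart in neither direction, with 5.83, 6.72, 6.07, 5.74 and 7.49 in mice 1 to 5 against 3.69 to 4.62 in HFD. Smad9, an effector of BMP signalling, rose by 1.73 (adjusted p 0.00628) and 1.51 (adjusted p 0.0253), and in HFD MTX50 read −1.59, −1.83, −2.40, −3.53 and −3.84, again lowest in mice 4 and 5. The BMP ligand Bmp2 rose by 0.39 (adjusted p 0.0336) and 0.59 (adjusted p 0.0144). Furin, the protease that cuts the hepcidin precursor, rose by 0.50 on the HFD (adjusted p 0.0167), Smad1 rose by 0.51 in lean mice (adjusted p 0.0253) and the ligand Bmp7 fell by 1.31 there (adjusted p 0.0052).

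In HFD vs LFD, 2 of the 19 regulators were higher and 6 lower, beside 18% and 10.4% of all tested genes. Receptors Acvr2a (−0.57, adjusted p 0.00524) and Bmpr1a (−0.54, adjusted p 0.00804) and the shared mediator Smad4 (−0.53, adjusted p 0.00552) were lower. Erfe, which encodes erythroferrone, the hormone of red cell precursors that suppresses hepcidin, was higher in HFD (0.76 ± 0.27, adjusted p 0.0425). Within HFD MTX50, Erfe read −4.15, −4.16, −4.07, −4.53 and −3.06, with mouse 5 highest of all 18 arrays and mouse 4 lowest of the group. Bmpr1a differed between the treatment effects (0.80, adjusted p 0.0065), being lower with methotrexate in lean mice (−0.41) and higher in HFD mice (0.40). Smad1 (−0.86, adjusted p 0.0127), Smad5 (0.55, adjusted p 0.0274) and Smad4 (0.45, adjusted p 0.0335) passed that test too.

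Of 8 genes of the inflammatory route, 4 rose and 1 fell in LFD MTX50 vs LFD, beside 17.6% and 10.5% of all tested genes. In HFD MTX50 vs HFD, 2 rose and 0 fell, beside 4.83% and 6.13% of all. Socs3, the feedback inhibitor induced by IL-6, rose by 1.42 ± 0.34 in lean (adjusted p 0.00886) and 1.84 ± 0.34 in HFD mice (adjusted p 0.00854). Il6ra, the IL-6 receptor chain, rose by 1.5 (adjusted p 0.00638) and 1.21 (adjusted p 0.0335). Stat3, the transcription factor of this route, rose in lean mice (0.95 ± 0.13, adjusted p 0.000507) and had a smaller difference in HFD mice (0.33, adjusted p 0.0930), and the effects differed (−0.62, adjusted p 0.0196). Inhbb, the activin B subunit, rose in lean mice (1.09, adjusted p 0.0279), where the hepatocyte transcription factor Creb3l3 fell (−0.56, adjusted p 0.0286). HFD MTX50 mice 4 and 5, with the lowest Hamp of the group, had its highest Socs3 (0.72 and 1.24 against −0.46 to −0.00). Other genes of the route did not set these mice apart in the same way, since mouse 4 had the lowest Il6 (0.93), Il6ra (1.23), Stat3 (1.48) and Inhbb (−2.47) of the group and mouse 5 its highest Il6 (3.53) and Stat3 (2.30). Creb3l3 was higher (0.62, adjusted p 0.0241) and Stat3 lower (−0.54, adjusted p 0.0111) in HFD MTX50 than in LFD MTX50. Between the untreated diets 0 of 8 passed, where 18% of all tested genes were higher in HFD and 10.4% lower.

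Of 18 further genes of iron transport and storage, 3 rose and 2 fell in LFD MTX50 vs LFD, near the 17.6% and 10.5% of all tested genes. In HFD MTX50 vs HFD, 3 rose and 0 fell, beside 4.83% and 6.13% of all. Ceruloplasmin, Cp, the ferroxidase that works with ferroportin, rose by 0.79 ± 0.14 (adjusted p 0.00208) and 0.83 ± 0.14 (adjusted p 0.00665). Slc39a14, the importer of free iron into hepatocytes, rose by 0.90 ± 0.24 (adjusted p 0.0132) and 1.14 ± 0.24 (adjusted p 0.0119). The ferrireductase Steap4 rose in HFD mice (1.26, adjusted p 0.0242), the mitochondrial iron importer Slc25a37, which red cell precursors use, fell in lean mice (−0.72, adjusted p 0.0437), and the ferroxidase Heph rose in lean mice (0.58, adjusted p 0.00587). Heph was also higher in HFD than LFD (0.75, adjusted p 0.00349), as was the importer Slc11a2 (0.48, adjusted p 0.0143), while the iron chaperone Pcbp2 (−0.59, adjusted p 0.00457) and the importer Slc39a8 (−0.45, adjusted p 0.0297) were lower. These 4 genes also differed in their response to methotrexate between the diets, Heph by −0.94 (adjusted p 0.00559), Slc39a8 by 0.79 (adjusted p 0.0104), Slc11a2 by −0.61 (adjusted p 0.0185) and Pcbp2 by 0.44 (adjusted p 0.0473).

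Of 3 iron regulatory protein genes, Ireb2 was lower in HFD than LFD (−0.46, adjusted p 0.0243), as 10.4% of all tested genes were. None (0) of the 3 was higher there, beside 18% of all. With methotrexate 0 of the 3 passed on either diet. Of all tested genes, 17.6% rose and 10.5% fell in lean mice, and 4.83% rose and 6.13% fell in HFD mice. Of 19 genes of haem and haemoglobin handling, 4 rose and 2 fell in LFD MTX50 vs LFD, near the 17.6% and 10.5% of all tested genes. Haptoglobin, Hp (1.03, adjusted p 0.00339), and hemopexin, Hpx (0.69, adjusted p 0.035), the plasma binders of free haemoglobin and haem, rose, as did Cd163, the macrophage receptor for haptoglobin complexes (0.85, adjusted p 0.0135). Uros, an enzyme of haem synthesis, fell (−0.79, adjusted p 0.0044). With methotrexate on the HFD, Hpx (0.75, adjusted p 0.0475) and the haem transporter Flvcr2 (1.05, adjusted p 0.0483) rose and Alad, another enzyme of haem synthesis, fell (−0.68, adjusted p 0.0275). Between the untreated diets, Fech (−0.37, adjusted p 0.0293) and Hmox2 (−0.26, adjusted p 0.0353) were lower. Between the treated groups Uros (0.60, adjusted p 0.0185) and Cpox (0.49, adjusted p 0.0412) were higher in HFD MTX50 and Lrp1, the hemopexin receptor, was lower (−0.50, adjusted p 0.00968). The treatment effects of these genes also differed (Cpox 0.82, adjusted p 0.0188, Uros 0.70, adjusted p 0.0343, and Lrp1 −0.53, adjusted p 0.023).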

How the data were processed

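Total liver RNA was labelled with Cy3. The deposited scanner files hold Agilent intensity values per spot, which the authors made with Feature Extraction 10.7.3.1 (per the file headers); the processed intensity is background-subtracted and detrended within each array and not scaled between arrays. The series' value table holds the background-subtracted intensity, rounded, and served as an alternative. Here log2 of the processed intensity was taken relative to the 75th percentile of each array over 43020 spots that are not controls. Outlier spots numbered 124 to 294 an array and were omitted; 0 were saturated. After replicate spots were averaged, a probe had to be well above background on 4 or more of 18 arrays, which 35739 of 39429 did. For 347 of these a value is missing on some array, and that array drops out of their fit. RefSeq (GRCm38.p6) named 28025 probes for 21153 genes, and a gene was read on its kept probe of highest mean signal.

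limma 3.58.1 (R 4.3.3) fitted 1 model with 4 groups, p-values being adjusted by the Benjamini-Hochberg method across every kept probe, and the script was tested on simulated data. The methods describe GeneSpring lists by a 2-fold change and p up to 0.015, without a stated model, and an unpaired t-test (the methods' t-test) for other measurements. The members, the lists and the naming rule (all members, at most 4 genes past the threshold per list and comparison by size, and the 5 genes most like Hamp) were chosen with earlier results of these data known. Marker genes, Ftl1, Id2, Id3, values shown by mouse for other genes, and further comparisons of a gene already named were chosen after their values were seen. Alternatives were normexp (on median signal, the files holding no mean signal), quantile and median scaling, the series table, other filters, slide and replicate blocks, fits of the compared groups alone, the methods' t-test, a 2-fold threshold, the mean of a gene's probes, and leaving out each array.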

Additional observations from a re-analysis of the deposited data

Results flagged for a closer look

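Of 40 sets of member values (10 genes in 4 groups), 2 held a mouse whose gap to the nearest other mouse, divided by the range of the group, passed Dixon's critical value for a group of that size. That value is set so that about 5% of groups pass it by chance. Tfrc of LFD MTX50 mouse 5 was −1.83, against −3.30 to −2.94 in the other 4 mice of that group, a gap of 0.76 of the group's range. That array lay on another slide than the other 4, and its second Tfrc probe was also the highest of the group, at −2.41. Slc40a1 of LFD mouse 2 was 2.10, against 1.83 to 1.87 in the other LFD mice, a gap of 0.83 of the range. The LFD MTX50 mice stayed above it.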

How the results depend on the processing

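The count of the 10 genes past the threshold was 0 for HFD vs LFD, 1 for HFD MTX50 vs HFD, 5 for LFD MTX50 vs LFD, 3 in HFD MTX50 vs LFD MTX50 and 0 for the difference of the treatment effects. In HFD vs LFD it was 2 with median scaling, 4 in a fit of the groups compared alone, and 3 by the methods' t-test either adjusted or at an unadjusted p up to 0.015. For methotrexate on the HFD it was 0 with normexp, with only these groups fitted, by the adjusted methods' t-test, with a fixed slide term and with a 2-fold threshold, and 2 within the shared slide. In LFD MTX50 vs LFD it was 0 with normexp, 1 with the slide as a random block and 1 with a 2-fold threshold. In HFD MTX50 vs LFD MTX50 it was 0 with normexp, with the random slide, with only these groups fitted and by the adjusted methods' t-test, and 1 with a 2-fold threshold. For the difference of the treatment effects it was 2 with median scaling and 1 with probes above background on all arrays. Leaving out 1 array gave 0 to 4, 1 to 3, 5 to 7, 1 to 3 and 0 to 1 in the order of the first sentence. For the 74 other iron genes, normexp gave 0, 0, 2, 0 and 0 calls (15, 15, 27 and 9 otherwise, and 7 positive and 5 negative for the last), and the random slide gave 2 in HFD vs LFD, 3 in LFD MTX50 vs LFD, 0 in HFD MTX50 vs LFD MTX50 and 3 for the difference of the effects. Normexp estimated background means of −1823 to 14.8, below 0 on 10 of 18 arrays, and moved the median of all probes to 0.54, 0.518, 0.665, 0.42 and −0.172 in that order of comparisons, from 0.125, −0.0617, 0.164, −0.105 and −0.2. Median scaling moved the median of all probes in LFD MTX50 vs LFD to 0.0664. In HFD MTX50 vs HFD, 0 of all 35739 probes passed with only these groups fitted or by the adjusted methods' t-test, so none of the 74 genes did. Apart from the cases where fewer arrays or another threshold enter, the cause was not tested. Of 1490 member values under other settings and with arrays left out, 0 reversed a call, 43 lost one and 41 gained one, and 50 changed sign where neither value passed. Fits of the groups alone and t-tests give no value for the difference of the effects. The median scaling and the fit within the shared slide were chosen after seeing the data.

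With the replicate number as a block the counts were 0, 1, 7, 3 and 0, Hamp and Hamp2 being added in LFD MTX50 vs LFD (adjusted p 0.0438 and 0.0265). Deviations from the group means of same-numbered mice in different groups had r of −0.31 to 0.25 over 25 pairs (median −0.02, 6 above 0.1). Differently numbered mice were not correlated as a reference, so this check cannot exclude that the numbers pair some samples.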
